A study of Mus musculus with 6 samples.

Results

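The genes described here encode the digestive machinery of the lysosome and the proton pump that acidifies it. They were chosen by symbol, as 50 named genes of the deposited count table, and all 50 were found among its 40428 distinct features, each on 1 line. The choice was made with earlier results of these data known, so comparisons of the 50 with all features are descriptive. They comprise 27 hydrolases, 2 soluble cofactors or related luminal proteins, 5 membrane proteins and 16 subunits or accessory proteins of the vacuolar proton pump (V-ATPase). All 50 passed the filter on low counts, with 134 to 33889 counts per library for each gene.

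The libraries came from the subcutaneous white fat of C57BL/6J mice fed regular chow at room temperature. In 3 ANKO mice, floxed Nampt had been removed from adipocytes by a Cre transgene driven by the adiponectin promoter, and the 3 control mice were flox/flox, with no statement in the labels on whether they carried Cre. The labels do not state the age of the mice. RNA of the whole tissue was sequenced, so that other cells of the depot, which keep Nampt, also contributed reads. Total counts were 20419821 to 23860596 in the ANKO libraries and 19748962 to 22588171 in the control libraries. Nampt, the targeted gene, which encodes the rate-limiting enzyme of NAD salvage, had 47.0 to 50.2 CPM in ANKO libraries and 83.6 to 93.0 CPM in control libraries (log2 fold change -0.85, adjusted p = 0.00416 by edgeR's quasi-likelihood test). CPM are read counts scaled to library size, and a positive log2 fold change means a higher level in ANKO. Adjustment of p was by Benjamini-Hochberg across the 19272 features tested, with a threshold of 0.05. The p-values measure the spread between these mice, 3 per group.

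Lysosomes degrade proteins, glycans, nucleic acids and lipids delivered by endocytosis, phagocytosis and autophagy. Their hydrolases work at acid pH, which the V-ATPase maintains by coupling ATP hydrolysis in its cytosolic V1 sector to proton transport through its membrane V0 sector. In adipose tissue, macrophages with large lysosomal compartments take up lipid and cell debris, and adipocytes also carry lysosomes. Many lysosomal genes carry a short palindromic element near their start, known as the CLEAR motif, which is recognised by the transcription factor TFEB and its relatives.

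Of the 50 genes, 5 rose in ANKO tissue and none fell. The 5 were the acid lipase Lipa, the cathepsin Ctsz, the luminal glycoprotein Creg1, the asparaginyl endopeptidase Lgmn and the proton pump subunit Atp6v1g1. Across all features tested, 0.488% were called higher and 1.1% lower, and among the 11084 features with a mean of at least 8.34 CPM, the level of the least abundant of these genes in CPM, 0.686% were called higher. At an unadjusted p under 0.05, 23 of the 50 genes were higher and 1 was lower, against 6.03% and 6.9% of all features. In 23 genes all 3 ANKO libraries were above all 3 controls, and in 1 gene, Ids, all 3 were below, against 9.19% and 10.2% of all features. Positive log2 fold changes were found for 46 of 50 genes, against 9658 of all 19272 features. The 50 were measured in the same 6 mice and are not independent of each other. The 50 had a median of 0.26 and a range of -0.21 to 1.23, while the median of all features was 0.00068. DESeq2 called 12 of the 50 higher and none lower, against 2.01% of all features higher. Without ANKO 1, edgeR called 10 of the 50 higher, and without any other single library it called none. Calls over all features shifted too. With all libraries 94 of 19272 features were higher, and without ANKO 1 107 of 19762. Without 1 of the other libraries, 20 to 41 of 19763 to 20051 features were higher.

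**Figure D1:**
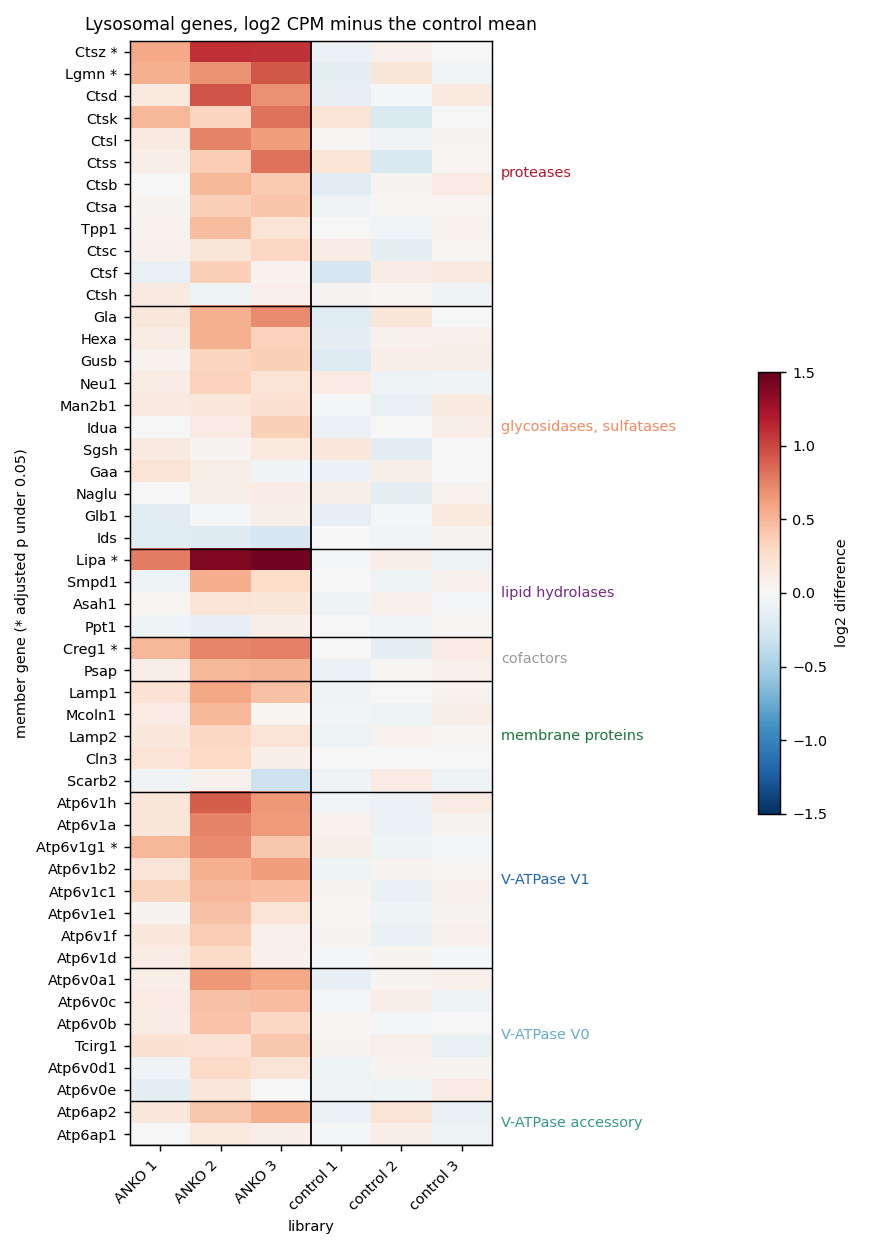
Heat map of log2 CPM minus the control mean for the 50 genes (vertical axis, grouped by role) in the 3 ANKO and 3 control libraries (horizontal axis). Red marks values above and blue values below the control mean, an asterisk marks an adjusted p under 0.05, and the ANKO 1 column is paler than ANKO 2 and ANKO 3 in most genes.

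The 50 genes did not stand at the same distance from control in each ANKO library. Their median difference from the control mean on the log2 CPM scale was 0.117 in ANKO 1, 0.375 in ANKO 2 and 0.326 in ANKO 3, while the 3 control libraries lay between -0.0303 and 0.0353. ANKO 1 had the lowest value of the 3 ANKO libraries in 37 of the 50 genes. The highest was in ANKO 2 for 27 genes, in ANKO 3 for 20 and in ANKO 1 for 3. The same library stood lowest for the hydrolases, with medians of 0.096 in ANKO 1, 0.351 in ANKO 2 and 0.305 in ANKO 3. For the V-ATPase genes the medians were 0.142, 0.433 and 0.401 in ANKO 1, 2 and 3. For the 5 membrane proteins ANKO 3 was lowest, at 0.097, with 0.153 in ANKO 1 and 0.313 in ANKO 2.

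The 4 lipid hydrolases act on lipids delivered to the lysosome. Lipa (chromosome 19, 34492318 to 34527474, minus strand, GRCm38) encodes lysosomal acid lipase, which cleaves cholesteryl esters and triglycerides. Lipa had 84.0, 129.6 and 134 CPM in ANKO 1, 2 and 3, against 48.5, 52.8 and 46.6 CPM in controls 1, 2 and 3. The lowest ANKO library, ANKO 1, was still above the highest control. Lipa rose to 116 ± 27.7 CPM in ANKO tissue, against 49.3 ± 3.20 CPM in control tissue (SD, n = 3 each), a 2.35-fold difference (log2 fold change 1.23, SE 0.176, adjusted p = 0.0205 by edgeR). This was the widest difference among the 50 genes on the log2 scale.

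Smpd1, the acid sphingomyelinase, had 38.9, 60.1 and 49.8 CPM in ANKO 1 to 3, against 41.4, 38.9 and 43.2 CPM in controls 1 to 3 (log2 fold change 0.27, adjusted p = 0.528). Its groups overlapped through ANKO 1, which was level with the lowest control, and the log2 fold change was 0.107 without ANKO 2 and 0.435 without ANKO 1. Asah1, the acid ceramidase, averaged 63.8 ± 3.95 CPM in ANKO and 58.2 ± 2.84 CPM in control tissue (SD, n = 3 each; log2 fold change 0.13, adjusted p = 0.584), and its log2 fold change was 0.203 without ANKO 1. Ppt1, which removes fatty acyl groups from proteins, had a log2 fold change of -0.03 (adjusted p = 0.945). Lipa was thus the 1 lipid hydrolase of 4 past the test, and the median log2 fold change of the 4 was 0.20.

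Among the 12 proteases, Ctsz and Lgmn rose and none fell, and all 12 had a positive log2 fold change (median 0.38, range 0.04 to 0.93). Ctsz (chromosome 2, 174427493 to 174439039, minus strand) encodes the carboxypeptidase cathepsin Z. Ctsz had 149, 216 and 214 CPM in ANKO 1, 2 and 3, against 95.2, 107 and 101 CPM in controls 1, 2 and 3. Its groups did not overlap, and ANKO 1 was again the ANKO library closest to the controls. The mean was 193 ± 37.9 CPM in ANKO and 101 ± 5.80 CPM in control tissue (SD, n = 3 each), a 1.91-fold difference (log2 fold change 0.93, SE 0.146, adjusted p = 0.0247 by edgeR).

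Lgmn (chromosome 12, 102394084 to 102439813, minus strand) encodes legumain, which cuts proteins after asparagine and matures several cathepsins. Lgmn had 72.6, 80.04 and 95.8 CPM in ANKO 1, 2 and 3, against 45.5, 57.1 and 48.6 CPM in controls 1, 2 and 3. Every ANKO library was above every control library, with ANKO 3 highest. Lgmn was 1.64-fold higher in ANKO tissue by edgeR's fit (log2 fold change 0.72, adjusted p = 0.0405).

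Ctsd, the aspartic protease cathepsin D, was the most abundant protease per length. Ctsd had 807, 1404 and 1172 CPM in ANKO 1, 2 and 3, against 668, 716 and 810 CPM in controls 1, 2 and 3. ANKO 1 fell within the control range while ANKO 2 and ANKO 3 lay well above it. Ctsd did not pass the test (log2 fold change 0.62, SE 0.197, adjusted p = 0.212), though DESeq2 and the edgeR fit without ANKO 1 called it. It shares 808 bases of exon with Gm49369 on the same strand, and Ctsl shares 395 with Gm49230 and Glb1 165 with Tmppe, so the counts of these 3 are less certain. Exons of 13 of the 50 genes overlap a gene on the opposite strand (Ctsa, Ctsb, Ctsl, Ctsz by 10 bases, Hexa, Idua, Sgsh, Ppt1, Lamp1, Cln3, Atp6v1e1, Atp6v1h and Atp6v0b), and as no strand setting is named, reads of such pairs cannot be told apart.

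Of the other cysteine cathepsins, Ctsk, Ctsl and Ctss had log2 fold changes of 0.55, 0.52 and 0.45 (adjusted p = 0.186, 0.172 and 0.387). These are broad endopeptidases, of which Ctss is typical of antigen-presenting cells and Ctsk of osteoclasts. Ctsk had 21.2 to 29.8 CPM in ANKO libraries and 14.6 to 19.6 CPM in control libraries. Ctsl averaged 185 ± 39.1 CPM in ANKO and 129 ± 4.62 CPM in control tissue, and Ctss averaged 116 ± 29.3 CPM in ANKO and 85.0 ± 12.2 CPM in control tissue (SD, n = 3 each). The groups did not overlap for Ctsk and Ctsl and overlapped for Ctss. DESeq2 and the edgeR fit without ANKO 1 called Ctsl higher. Ctsb, an abundant cathepsin, averaged 1034 ± 184 CPM in ANKO and 836 ± 85.1 CPM in control tissue (log2 fold change 0.31, adjusted p = 0.470). At the other end of the range, Ctsf had 24.4, 33.8 and 27.4 CPM in ANKO 1, 2 and 3, against 22.2, 28.4 and 29.0 CPM in controls 1, 2 and 3 (log2 fold change 0.11, SE 0.155, adjusted p = 0.853). Its groups overlapped, and the direction turned without ANKO 2 or without control 1. The aminopeptidase Ctsh had a log2 fold change of 0.04 (adjusted p = 0.896). Ctsa, which also protects other hydrolases, had a log2 fold change of 0.28, Tpp1, the tripeptidyl peptidase, 0.25 and Ctsc, the dipeptidyl peptidase, 0.18 (adjusted p = 0.320, 0.400 and 0.496).

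**Figure D2:**
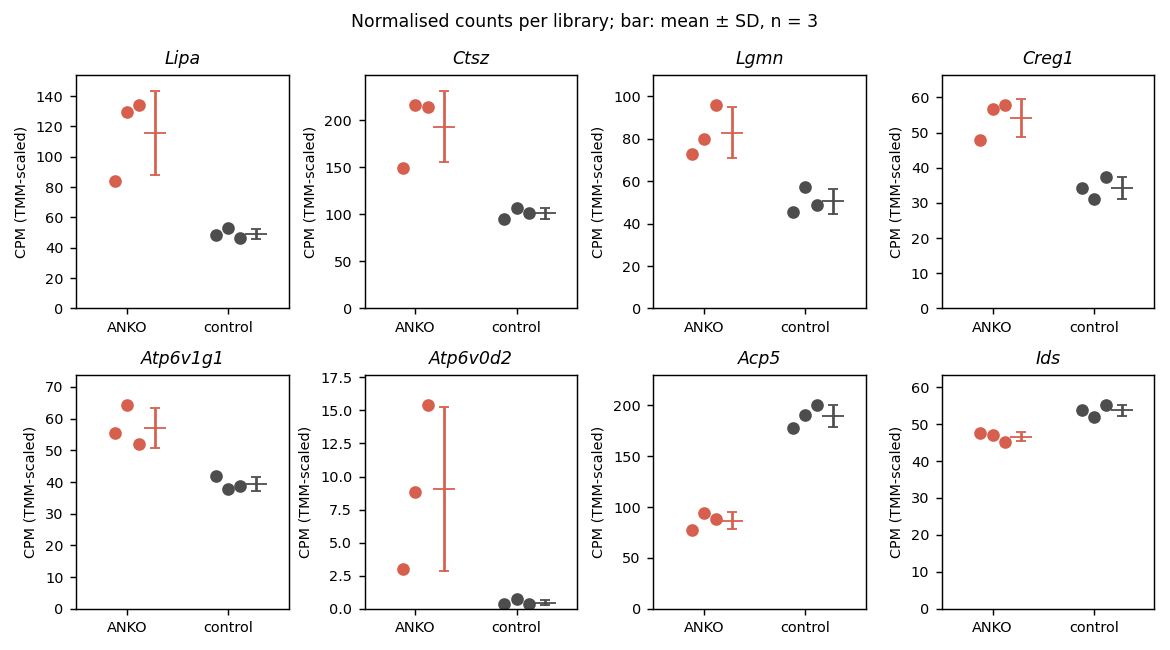
Normalised counts (vertical axes, TMM-scaled CPM from 0) of 8 genes in each ANKO library and each control library (horizontal axes). Points are libraries 1 to 3 in order and bars are mean ± SD (n = 3), and the ANKO and control points do not overlap in any of the 8 panels, with Acp5 and Ids lower in ANKO.

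The 11 glycosidases and sulfatases, which degrade glycans, glycolipids and glycosaminoglycans, had no member past the test in either direction. The log2 fold change was positive in 9, and the 11 had a median of 0.17 and a range of -0.21 to 0.48. Hexa, the alpha subunit of beta-hexosaminidase, had 94.8, 127 and 111 CPM in ANKO 1, 2 and 3, against 79.7, 91.6 and 92.1 CPM in controls 1, 2 and 3 (log2 fold change 0.34, adjusted p = 0.270). Its groups were separated by a narrow margin between ANKO 1 and control 3. Gla, the alpha-galactosidase, had 7.82, 10.05 and 11.3 CPM in ANKO 1, 2 and 3, against 6.13, 7.86 and 6.91 CPM in controls 1, 2 and 3 (log2 fold change 0.48, adjusted p = 0.328). ANKO 1 was just under control 2, so its groups overlapped.

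Ids, the iduronate 2-sulfatase that acts on heparan and dermatan sulfate, ran the other way. Ids had 47.5, 47.0 and 45.2 CPM in ANKO 1, 2 and 3, against 54.0, 52.1 and 55.1 CPM in controls 1, 2 and 3. It was the 1 gene of the 50 with all 3 ANKO libraries below all 3 controls. The difference did not pass the test (log2 fold change -0.21, SE 0.0749, adjusted p = 0.286 by edgeR). The neighbouring steps of glycosaminoglycan breakdown, Idua, Naglu, Sgsh and Gusb, had log2 fold changes of 0.17, 0.07, 0.10 and 0.24 (adjusted p = 0.640, 0.854, 0.785 and 0.443). The sialidase Neu1 (0.22), the mannosidase Man2b1 (0.17), the alpha-glucosidase Gaa (0.08) and the beta-galactosidase Glb1 (-0.03) completed the group, with adjusted p = 0.426, 0.486, 0.798 and 0.945.

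Digestion of sphingolipids also needs activator proteins, and Psap encodes the precursor of the saposins. Psap had 1118, 1468 and 1484 CPM in ANKO 1, 2 and 3, against 978, 1048 and 1094 CPM in controls 1, 2 and 3 (log2 fold change 0.38, SE 0.135, adjusted p = 0.269). ANKO 1 was just above the highest control. Creg1 (chromosome 1, 165763746 to 165775308, plus strand) encodes a small secreted glycoprotein that is also found in lysosomes. Creg1 had 48.0, 56.8 and 57.9 CPM in ANKO 1, 2 and 3, against 34.2, 31.1 and 37.3 CPM in controls 1, 2 and 3. All 3 ANKO libraries were above all 3 controls. Creg1 rose 1.58-fold, to 54.2 ± 5.40 CPM in ANKO tissue, against 34.2 ± 3.08 CPM in control tissue (SD, n = 3 each; log2 fold change 0.66, SE 0.109, adjusted p = 0.0294 by edgeR).

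The 5 membrane proteins had no member past the test, and their median log2 fold change was 0.23. Lamp1 and Lamp2 are the heavily glycosylated proteins that line the lysosomal membrane. Lamp1 had 354, 455 and 413 CPM in ANKO 1, 2 and 3, against 294, 305 and 316 CPM in controls 1, 2 and 3 (log2 fold change 0.42, SE 0.111, adjusted p = 0.139). DESeq2 did call Lamp1 higher. Lamp2 had 185, 206 and 191 CPM in ANKO 1, 2 and 3, against 157, 173 and 169 CPM in controls 1, 2 and 3 (log2 fold change 0.22, adjusted p = 0.306). The groups did not overlap for either gene, and ANKO 2 was highest for both.

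Cln3, a membrane protein whose loss in humans causes a juvenile lysosomal storage disease, had 30.2, 32.0 and 27.9 CPM in ANKO 1, 2 and 3, against 26.0, 26.1 and 26.1 CPM in controls 1, 2 and 3 (log2 fold change 0.20, adjusted p = 0.418). The controls were nearly equal and all ANKO libraries lay above them. Mcoln1, the lysosomal calcium release channel, had a log2 fold change of 0.23 (adjusted p = 0.528). Scarb2, the receptor that carries beta-glucocerebrosidase to lysosomes, had a log2 fold change of -0.09 (adjusted p = 0.814).

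Of the 16 V-ATPase genes, Atp6v1g1 rose and none fell. All 16 log2 fold changes were positive, from 0.02 to 0.61, and their median was 0.32. In 11 of 16 every ANKO library was above every control library, in 7 of 8 genes of the V1 sector, 4 of 6 of the V0 sector and neither of the 2 accessory proteins. The median log2 fold change was 0.44 for the V1 sector, 0.29 for the V0 sector and 0.22 for the accessory proteins. No test of the difference between these groups was made.

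In the V1 sector, Atp6v1g1 (chromosome 4, 63544772 to 63550750, plus strand) encodes a subunit of the peripheral stalk that holds the catalytic head in place. Atp6v1g1 had 55.4, 64.2 and 52.0 CPM in ANKO 1, 2 and 3, against 42.0, 37.6 and 38.6 CPM in controls 1, 2 and 3. The groups did not overlap. The mean was 57.2 ± 6.31 CPM in ANKO and 39.4 ± 2.26 CPM in control tissue (SD, n = 3 each; log2 fold change 0.54, SE 0.102, adjusted p = 0.0499 by edgeR). The adjusted p lay at the threshold, and the call was lost when any 1 of the 6 libraries was left out (adjusted p = 0.0832 to 0.151).

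Atp6v1c1, a stalk subunit that regulates the joining of V1 to V0, had 41.2, 45.7 and 44.9 CPM in ANKO 1, 2 and 3, against 33.6, 30.5 and 34.2 CPM in controls 1, 2 and 3 (log2 fold change 0.42, SE 0.0902, adjusted p = 0.0724). All ANKO libraries were above all controls and close to each other. Atp6v1h, a subunit that also governs assembly of the 2 sectors, had 48.2, 79.95 and 66.9 CPM in ANKO 1, 2 and 3, against 41.3, 40.2 and 46.5 CPM in controls 1, 2 and 3 (log2 fold change 0.61, SE 0.175, adjusted p = 0.180). Its ANKO values were spread widely, with ANKO 1 just above control 3. The catalytic subunit Atp6v1a and its partner Atp6v1b2 had log2 fold changes of 0.54 and 0.46 (adjusted p = 0.139 and 0.116). Atp6v1a averaged 103 ± 20.2 CPM in ANKO and 70.7 ± 3.81 CPM in control tissue, and Atp6v1b2 averaged 99.0 ± 14.8 CPM in ANKO and 71.8 ± 2.58 CPM in control tissue (SD, n = 3 each). DESeq2 called Atp6v1a, Atp6v1b2, Atp6v1c1 and Atp6v1h as well as Atp6v1g1, and edgeR without ANKO 1 called Atp6v1a, Atp6v1b2 and Atp6v1h. The stalk subunits Atp6v1e1, Atp6v1f and Atp6v1d had log2 fold changes of 0.23, 0.20 and 0.15 (adjusted p = 0.436, 0.504 and 0.545).

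In the V0 sector, the large subunit through which protons pass exists in several forms. Tcirg1, the form best known from osteoclasts, had 91.8, 90.9 and 103 CPM in ANKO 1, 2 and 3, against 80.4, 82.0 and 72.1 CPM in controls 1, 2 and 3 (log2 fold change 0.28, SE 0.0888, adjusted p = 0.205). Another form, Atp6v0a1, averaged 155 ± 29.8 CPM in ANKO and 113 ± 7.94 CPM in control tissue (SD, n = 3 each; log2 fold change 0.46, adjusted p = 0.212). Neither passed the test, although the groups did not overlap for either, and Atp6v0a1 was called without ANKO 1. Atp6v0c, the subunit of the proton-carrying ring, had 67.9, 85.0 and 85.7 CPM in ANKO 1, 2 and 3, against 61.2, 66.9 and 59.5 CPM in controls 1, 2 and 3 (log2 fold change 0.35, adjusted p = 0.206). Named pseudogenes of Atp6v0c exist in the annotation, so its count is less certain.

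The ring subunit Atp6v0b had a log2 fold change of 0.29 (adjusted p = 0.239), and the connecting subunit Atp6v0d1 had 0.15 (adjusted p = 0.626; 0.0771 without ANKO 2 and 0.262 without ANKO 1). Atp6v0e, a small V0 subunit, had 43.4, 53.5 and 47.7 CPM in ANKO 1, 2 and 3, against 45.9, 45.2 and 51.8 CPM in controls 1, 2 and 3 (log2 fold change 0.02, adjusted p = 0.973). The range of the controls lay within that of the ANKO libraries, and the direction turned without ANKO 2, control 1 or control 2. The accessory proteins Atp6ap1 and Atp6ap2, which assist pump assembly, had log2 fold changes of 0.08 and 0.37 (adjusted p = 0.780 and 0.274). Atp6ap1 had 103, 114 and 111 CPM in ANKO 1, 2 and 3, against 102, 111 and 98.1 CPM in controls 1, 2 and 3. Its groups overlapped, and its log2 fold change was 0.0462 without ANKO 2, 0.141 without ANKO 1 and 0.13 without control 2. Atp6ap2, also known as the prorenin receptor, had 32.3, 38.1 and 41.6 CPM in ANKO 1, 2 and 3, against 27.1, 33.1 and 26.6 CPM in controls 1, 2 and 3, so ANKO 1 was just under control 2.

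**Figure D3:**
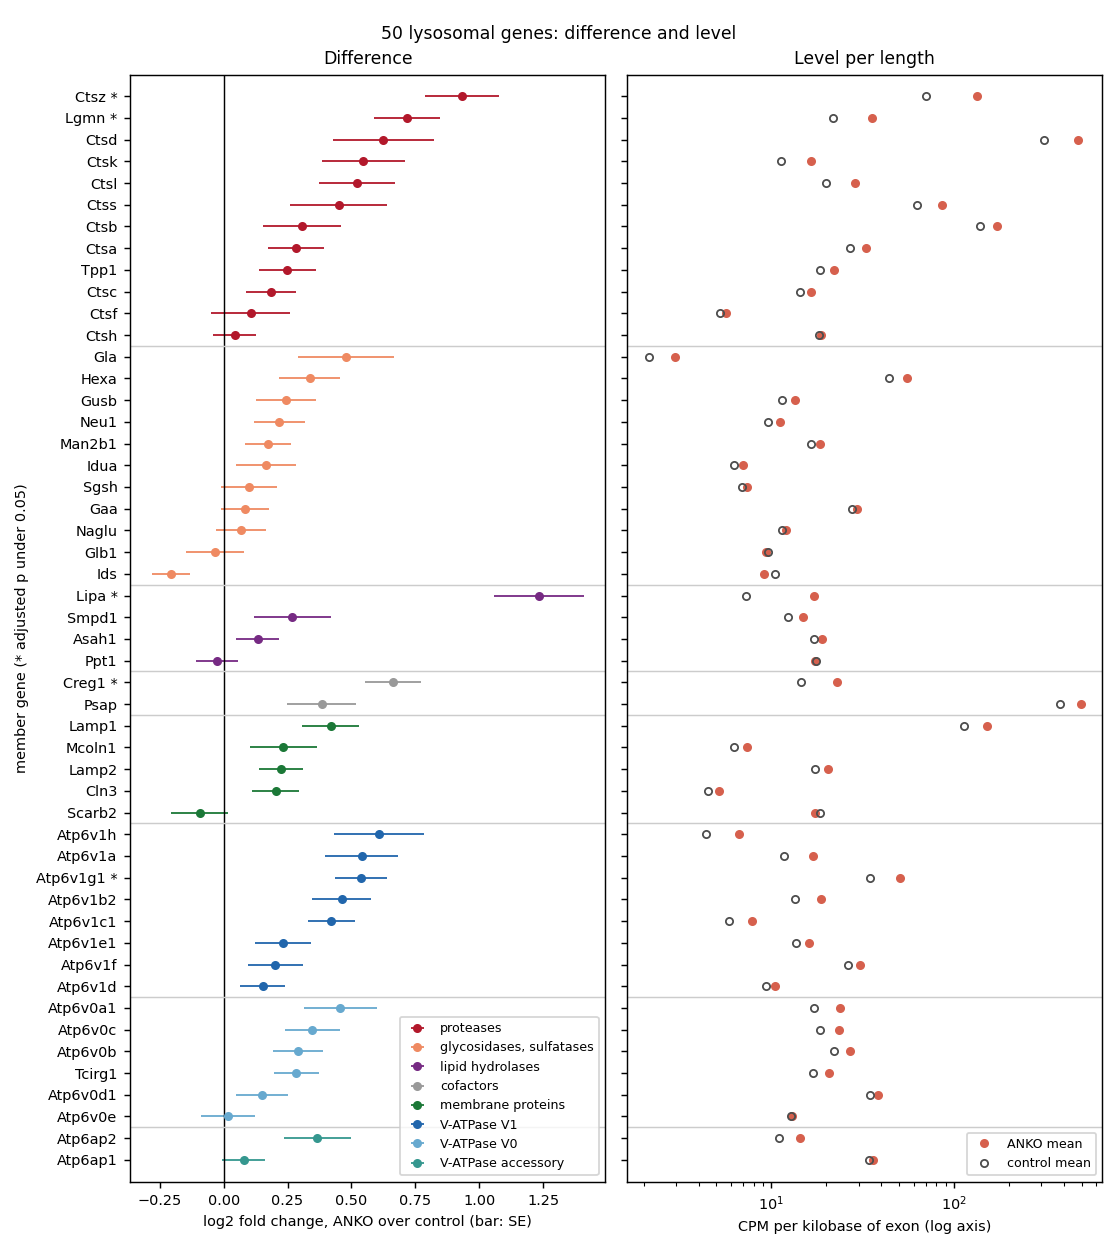
Left, log2 fold change of ANKO over control (horizontal axis; bars are the standard error) for the 50 genes (vertical axis, grouped by role), with the 5 genes past the test marked by an asterisk. Right, mean CPM per kilobase of exon (log axis) in ANKO (filled) and control (open) tissue, from Gla, the lowest, to Psap, the highest.

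Levels of different genes were compared as CPM per kilobase of exon. The length was that of all annotated exons of a gene joined, so these levels and ranks depend on which transcripts are annotated. Psap stood highest, at 494 ± 75.5 in ANKO and 379 ± 21.1 in control tissue (SD, n = 3 each). Ctsd followed at 480 ± 128 in ANKO and 311 ± 30.7 in control tissue, and then Ctsb at 171 ± 30.4 in ANKO and 138 ± 14.1 in control tissue. Psap and Ctsd did not differ beyond their spread in ANKO tissue, and Ctsz, at 134 ± 26.3 in ANKO and 70.2 ± 4.02 in control tissue, ranked 5 of 50. Lipa, which changed most, was among the lower ones on this scale, at 17.1 ± 4.09 in ANKO and 7.27 ± 0.471 in control tissue (rank 37). The highest V-ATPase gene per length was Atp6v1g1, at 50.4 ± 5.56 in ANKO and 34.7 ± 1.99 in control tissue. The lowest of all was Gla, at 2.98 ± 0.540 in ANKO and 2.13 ± 0.266 in control tissue.

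The promoter sequences of the 50 genes were searched for the core of the CLEAR motif, in RefSeq windows from 250 bases before to 50 bases after each gene start (GRCm38.p6). Entries existed for 43 of the 50 genes, with 51 windows in all, as 6 genes had several. The entries of Asah1, Ctsb, Ctsh, Atp6v1b2, Atp6v1c1, Atp6v1g1 and Atp6v1h were missing. The 8-letter palindrome TCACGTGA, which reads alike on both strands and contains CACGTG, was in the windows of 8 of the 43 genes (18.6%), against 304 of 27025 genes overall (1.12%). The 6-letter core CACGTG was in 17 of the 43 (39.5%), against 2187 of 27025 genes overall (8.09%). As the element is known from lysosomal genes, its higher share among these genes is descriptive only. The 8 genes with TCACGTGA were Ctsd, Ctsa, Gla, Cln3, Mcoln1, Atp6v1a, Atp6v0d1 and Atp6v0e. In 5 of them the element with 11 bases on either side lay wholly before a RefSeq gene start, and these stretches are shown to let the shared element be compared, with TCACGTGA in capitals and each sequence 5′ to 3′ on the strand of its gene.
Ctsd, chr7:142387908-142387937, minus strand: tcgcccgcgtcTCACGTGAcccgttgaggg
Gla, chrX:134601182-134601211, minus strand: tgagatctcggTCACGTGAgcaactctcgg
Cln3, chr7:126583340-126583369, minus strand: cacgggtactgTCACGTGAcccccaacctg
Mcoln1, chr8:3500462-3500491, plus strand: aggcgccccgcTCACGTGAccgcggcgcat
Atp6v1a, chr16:44139373-44139402, minus strand: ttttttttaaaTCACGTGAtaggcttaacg

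In the GENCODE M21 annotation, whose genes can start further upstream, 4 of these 5 stretches lie inside the gene, and that of Gla lies before it. Gla also held a second copy further upstream. Lamp1 lacked the 8-letter form but held 4 copies of CACGTG within the 80 bases before its start, which are shown in capitals.
Lamp1, chr8:13159081-13159160, plus strand: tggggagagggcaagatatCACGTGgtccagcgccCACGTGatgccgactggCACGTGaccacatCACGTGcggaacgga

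Of the 5 genes that rose, Lipa, Ctsz, Creg1 and Lgmn had promoter entries, and none held TCACGTGA. The 6-letter core was found for Lgmn alone of these 4, at the second of its 2 RefSeq starts, which lies inside the GENCODE M21 gene. The 250 bases before the start of Lipa and Ctsz, the pair with the widest differences, are shown as examples of windows without it, followed by the Lgmn stretch with CACGTG in capitals.
Lipa, chr19:34527475-34527724, minus strand: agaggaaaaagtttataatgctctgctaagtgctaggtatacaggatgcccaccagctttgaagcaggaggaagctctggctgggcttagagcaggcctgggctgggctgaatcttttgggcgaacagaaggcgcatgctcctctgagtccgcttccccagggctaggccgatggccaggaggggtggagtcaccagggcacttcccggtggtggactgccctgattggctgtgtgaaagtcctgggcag
Ctsz, chr2:174439040-174439289, minus strand: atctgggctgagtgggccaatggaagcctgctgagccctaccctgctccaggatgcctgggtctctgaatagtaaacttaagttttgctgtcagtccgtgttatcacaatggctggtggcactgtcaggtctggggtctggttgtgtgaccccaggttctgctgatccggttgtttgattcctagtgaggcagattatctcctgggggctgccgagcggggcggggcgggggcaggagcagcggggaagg
Lgmn, chr12:102439125-102439152, minus strand: ggaatgtctgtCACGTGgtccattttat

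Among the 43 genes with promoter entries, those with and without the element had nearly the same median difference between ANKO and control tissue. The 7 genes without an entry, among them Atp6v1g1, could not be placed in either group. Their log2 fold changes ran from 0.04 (Ctsh) to 0.61 (Atp6v1h). The median log2 fold change was 0.26 in the 8 genes with TCACGTGA (range 0.017 to 0.625) and 0.24 in the 35 without it (range -0.206 to 1.23). Any link between the element and the differences was not tested. With CACGTG it was 0.23 (17 genes, 1 of them called higher), and without it 0.25 (26 genes, 3 called higher). A match is a description of these letters in this window, and no match says only that they were not in it.

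Other genes of the lysosome were examined by 4 further lists. The first held 32 other lysosomal enzymes and luminal proteins, among them the activator protein Gm2a and the cholesterol carrier Npc2. Of these 32, none rose and 1 fell, against 0.488% and 1.1% of all features. A positive log2 fold change was found for 19 (median 0.05), against 9658 of all 19272 features. In 4 of the 32 all 3 ANKO libraries were above all 3 controls, against 9.19% of all features. Hyal1 and Naaa were among those with all 3 below (log2 fold changes -0.67 and -0.37, not called). The gene that fell was Acp5, the tartrate-resistant acid phosphatase. Acp5 had 77.7, 93.9 and 88.4 CPM in ANKO 1, 2 and 3, against 178, 190.5 and 200 CPM in controls 1, 2 and 3. The highest ANKO library was far below the lowest control. Acp5 fell to 86.7 ± 8.20 CPM in ANKO tissue, against 189 ± 11.2 CPM in control tissue (SD, n = 3 each; log2 fold change -1.13, SE 0.0971, adjusted p = 0.00352 by edgeR), and was called in every one of 13 alternative fits.

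A list of 13 other V-ATPase genes held further isoforms and the assembly factors Tmem199, Ccdc115 and Vma21. Of these 9 were tested, 1 rose and none fell, and 7 had a positive log2 fold change. Atp6v0d2, an alternative form of the connecting subunit that is abundant in osteoclasts and macrophages, had 3.03, 8.79 and 15.4 CPM in ANKO 1, 2 and 3, against 0.350, 0.706 and 0.361 CPM in controls 1, 2 and 3. These were 72, 203 and 331 counts in the ANKO libraries, against 8, 14 and 7 counts in the control libraries. Every ANKO library lay several-fold above every control, with a wide spread among the ANKO libraries. By edgeR's fit Atp6v0d2 had a log2 fold change of 4.25 (SE 0.691, adjusted p = 0.0418), and it was called in 6 of 13 alternative fits. The call was lost with limma-voom (adjusted p = 0.23), with no low-count filter (adjusted p = 0.0863) and without any 1 library other than ANKO 1 (highest adjusted p = 0.19). Its ubiquitous counterpart Atp6v0d1 had 59.6, 75.5 and 71.0 CPM in ANKO 1, 2 and 3, against 58.6, 63.5 and 63.5 CPM in controls 1, 2 and 3. None of 26 other lysosomal membrane proteins and none of 11 tested genes of hydrolase sorting or inhibition passed the test by edgeR. Their median log2 fold changes were 0.08 and 0.14, and 15 of the 26 and 8 of the 11 were positive. All 3 ANKO libraries were above all 3 controls in 8 of the 26 and 0 of the 11. Mfsd8 and Sort1 were among those with all 3 below (log2 fold changes -0.61 and -0.58).

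Markers of some cell types also differed between the groups, in either direction, and their part in the results was not tested. No tested marker was at 0 in all libraries. Of 16 macrophage markers 1 rose, Adgre1, and 14 had a positive log2 fold change. Their summed level was 1206 to 1451 CPM in ANKO libraries and 918.8 to 1046 CPM in control libraries. Of 8 markers of lipid-associated macrophages 5 rose (Trem2, Mmp12, Spp1, Plin2 and Gpnmb). Spp1 lay at the threshold and Trem2 near it (adjusted p = 0.0499 and 0.0449 by edgeR). Both were low, Spp1 at 2.93 to 4.03 CPM in ANKO libraries and Trem2 at 0.567 to 1.66 CPM in control libraries. The sum of the 8 was 668, 1283 and 995.5 CPM in ANKO 1, 2 and 3, against 323.9, 299 and 337.9 CPM in controls 1, 2 and 3. Plin2, which adipocytes also express, gave 411 to 883 CPM of that sum in ANKO libraries and 141 to 176 CPM in control libraries. ANKO 1 had the lowest sum of the ANKO libraries, as it had for most of the 50 genes. Of 10 adipocyte markers 4 fell (Adipoq, Plin1, Cfd and Retn). The sum of the 10 was 5095, 7583 and 6315 CPM in ANKO 1, 2 and 3, and 12530 to 18920 CPM in control libraries. ANKO 1 was thus lowest of the ANKO libraries in the adipocyte sum as well. In whole tissue, fewer cells of a type and less RNA per cell cannot be told apart.

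Of 5 mast cell markers tested, 4 rose. None of 10 dendritic, B and T cell markers, 6 endothelial markers or 7 fibroblast markers passed the test by edgeR. Skeletal muscle markers, of which none of 17 tested passed the test, had sums of 19630, 3403 and 106 CPM in ANKO 1, 2 and 3, against 6495, 1625 and 10220 CPM in controls 1, 2 and 3. The groups overlapped in these sums. For the hydrolases, cofactors, membrane proteins and V-ATPase genes together, ANKO 1 had the lowest ANKO median difference from the control mean (0.117). ANKO 1 also had the most muscle RNA. The other libraries did not all follow this order. Control 3 had the most muscle RNA of the controls and their highest median (0.0353). ANKO 2 had more muscle RNA than ANKO 3 and the higher median (0.375, against 0.326). Control 1 had more than control 2 and the lower median (-0.0303, against -0.000433). With the muscle signal as a covariate, Ctsz, Lgmn and Lipa were called and Creg1 and Atp6v1g1 were not. The median log2 fold change of the hydrolases was then 0.22, against 0.24 without the covariate. For the V-ATPase genes it was 0.28, against 0.32 without the covariate. Over all features the covariate fit called 49 higher and 112 lower, against 94 and 212 without it. The part of muscle RNA in the differences was not tested.

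**Figure D4:**
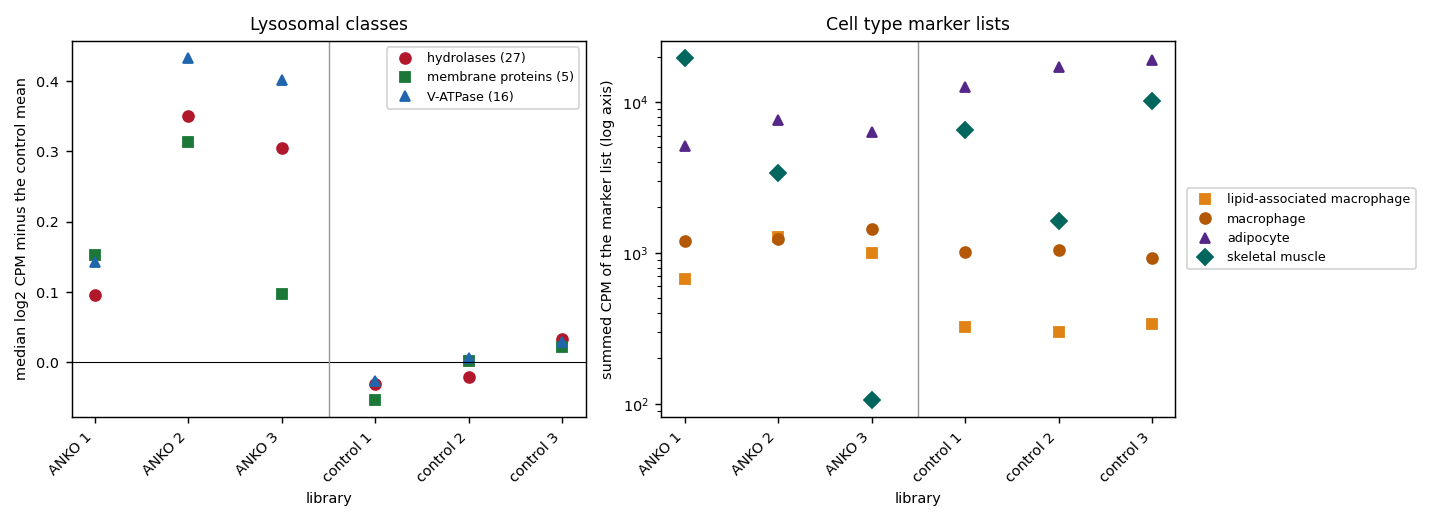
Left, median log2 CPM minus the control mean of the hydrolases, membrane proteins and V-ATPase genes (vertical axis) in each library (horizontal axis, ANKO then control). Right, summed CPM (log axis) of 4 cell type marker lists in the same libraries, with the lipid-associated macrophage list at 668 to 1283 CPM in ANKO and 299 to 337.9 CPM in control libraries.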

How the data were processed

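RNA of subcutaneous white adipose tissue from 3 ANKO and 3 control mice was measured by sequencing. Per the labels' protocols, Qiazol and RNeasy served for extraction and Ribo-Zero Gold for removal of ribosomal RNA. Per the submitters' processing notes, STAR 2.0.4b, Subread and featureCounts 1.45 were used with GRCm38, with no annotation release or strand setting named. The table deposited by the authors holds raw counts per gene symbol, 1 column per mouse. Of 40757 lines, 329 exact repeats were dropped.

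Counts were fitted with edgeR 4.0.16 (R 4.3.3): filterByExpr (minimum count 10, total 15) kept 19272 features, TMM scaling was applied, and the robust quasi-likelihood F test compared ANKO with control. Standard errors were taken as the log2 fold change over the square root of F. Steps were tested on simulated data. Exon lengths, positions and overlaps came from GENCODE M21, where all 50 symbols matched. Library pairs differed beyond sampling noise (chi-square per degree of freedom 33.7 to 97.2).

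The genes and lists were chosen with earlier results of these data known. Named, with values per library or group means, were every gene of the 50 past the threshold, the 2 smallest p and the highest and lowest level per length in each role, called genes of the 4 further lists, and Nampt. The other genes of the 50 were added for completeness. Outside this rule, Ctsb, Ctsk, Ctsl, Ctss, Atp6v1a, Atp6v1b2 and Atp6v0a1 were also given library values or group means, and all of these had positive log2 fold changes. The alternatives were RLE scaling, DESeq2 1.42.0, limma-voom (limma 3.58.1), no low-count filter, at least 1 CPM in 3 libraries, the replicate number as a block, a muscle covariate, and leaving out each library.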

Additional observations from a re-analysis of the deposited data

How the results depend on the processing

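Of the 50 genes, 5 were called higher in the fit reported above. DESeq2 called 12, limma-voom 3 (Creg1, Ctsz and Lipa) and the muscle covariate fit 3. Leaving out 1 library gave 0 to 10. Ctsz and Lipa were called in 8 of 13 alternatives, Lgmn and Creg1 in 6 and Atp6v1g1 in 3. Their highest adjusted p without 1 library was 0.10 for Ctsz and 0.127 for Creg1 (both without ANKO 3), 0.129 for Lgmn (without control 3), and 0.0845 for Lipa and 0.151 for Atp6v1g1 (both without control 2). None of the 50 was called lower in any of these fits. Over all features, 94 were higher and 212 lower. DESeq2 gave 388 higher and 498 lower, no low-count filter gave 167 higher, the muscle covariate gave 49 higher and 112 lower, and leaving out 1 library gave 20 to 107 higher and 55 to 221 lower. The median log2 fold change of the hydrolases, 0.243, was 0.187 to 0.351 without 1 library. The log2 fold change turned negative for Ctsf without ANKO 2 or control 1 (range without 1 library -0.0338 to 0.224, with -0.00833 without control 1) and for Atp6v0e without ANKO 2, control 1 or control 2 (range -0.0645 to 0.106, with -0.00807 without control 1 and -0.0204 without control 2). The cause of these shifts was not tested. Equal replicate numbers did not pair the libraries (correlations of deviations 0.0746, -0.0333 and -0.0435), and not every library correlated best with its own number. With the replicate block, 2 of the 50 genes (Ctsz and Lipa) and 62 features overall were higher. Depth limits Gla most among the 50 genes (134 to 243 counts per library), and outside them the control values of Atp6v0d2 (7 to 14 counts).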
